A study of Mus musculus with 16 samples.

Results

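The 9 genes described here are the core cardiac transcription factors Gata4, Gata5, Gata6, Nkx2-5, Hand1, Hand2, Isl1 and Mef2c, together with Lmcd1, whose protein is a cofactor of GATA factors. They were taken by name, and 8 of the 9 are among the 13964 genes measured. Nkx2-5 was not analysed here. Lmcd1 was on the list because it differed between genotypes in these same libraries, so its genotype values are a description and carry no test.

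RNA was sequenced from heart valves that were cut out by laser microdissection from C57BL/6 mouse embryos at stage E14.5. The groups were mutant aortic, wild-type aortic, mutant pulmonary and wild-type pulmonary valve, with 4 libraries each. Mutant embryos carried the Jag1flox allele and Nkx2.5-Cre, and wild-type embryos are labelled WT with no further allele. Jag1 is a ligand of the Notch receptors, and Nkx2.5-Cre recombines floxed DNA in cells that have expressed the cardiac gene Nkx2-5, which include heart muscle and part of the valve-forming cells. In some Nkx2.5-Cre lines the Cre gene replaces an Nkx2-5 allele, and the labels do not say which line was used. Aortic libraries were made as library batch 1 and pulmonary ones as batch 2, so a difference between valves cannot be told apart from one between batches. Mutant and wild-type libraries with the same number within a valve came from embryos of the same litter, which gives 8 litter pairs. These pairs come from only 5 litters, because 3 litters gave a pair in each valve, so the pairs are not 8 independent litters. Within a group the 4 libraries came from 4 litters, while the labels do not say how many embryos went into a library.

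GATA factors are zinc-finger proteins that bind the DNA word GATA and act in heart muscle, endocardium and the cushion tissue from which valves form. They work together with the homeodomain protein NKX2-5, the MADS-box protein MEF2C and the basic helix-loop-helix proteins HAND1 and HAND2. ISL1, a LIM-homeodomain protein, marks progenitors of the second heart field, which build the outflow tract in which both of these valves lie, and it is also made by sympathetic and other neurons. In mouse cells LMCD1 binds GATA6 and keeps it from DNA.

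Values are the authors' normalised counts, which are CPM after scaling between libraries. The reads recovered from these values, summed over all measured genes, lay between 4560219 and 8684366 per library. Jag1 itself was lower in the mutant of all 8 litter pairs. It had 9.90, 11.4, 5.93 and 10.2 in mutant aortic libraries 1 to 4, against 20.2, 54.7, 39.7 and 18.8 in wild-type aortic libraries. It had 12.4, 4.70, 3.78 and 1.85 in mutant pulmonary libraries 1 to 4, against 13.6, 19.2, 25.7 and 15.4 in wild-type pulmonary libraries. The groups did not overlap in either valve, and mutant pulmonary library 1 lay closest to wild type. The mean difference over both valves was -1.68 on the log2 scale (SE 0.32, limma adjusted p = 0.218).

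The libraries did not hold the same mixture of tissue. In 6 libraries, called muscle-poor below, the 14 skeletal muscle markers had a mean log2 level of 0.386 to 1.81, and in the other 10, called muscle-rich, that level was 4.25 to 6.02. Tbx20, a T-box factor of valve mesenchyme and heart muscle, split the muscle-rich libraries again. In 5 of them, called Tbx20-poor, it lay between 97.98 and 123, and in the other 5 between 549 and 976. The muscle-poor libraries had Tbx20 between 1032 and 1744. Each mutant group held 1 muscle-poor library, 2 muscle-rich libraries with more Tbx20 and 1 Tbx20-poor library. The wild-type aortic group held 2, 0 and 2 of these kinds, and the wild-type pulmonary group 2, 1 and 1. Fewer cells of a type and less RNA per cell cannot be told apart in such bulk samples.

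Lmcd1 stood at 0.512 of its wild-type level in mutant aortic valves and at 0.537 in mutant pulmonary valves, as folds computed from the differences of mean log2(value + 1). The gene (ENSMUSG00000057604, chr6:112273758-112330425, plus strand, GRCm38) spans 6 merged exons. In mutant aortic libraries 1 to 4 it had 17.7, 17.9, 19.7 and 29.9, against 38.3, 50.9, 28.2 and 54.0 in wild-type aortic libraries. In mutant pulmonary libraries 1 to 4 it had 17.4, 28.5, 19.5 and 19.5, against 34.1, 37.0, 32.2 and 60.7 in wild-type pulmonary libraries. All 4 mutant pulmonary libraries lay below all 4 wild-type ones. In the aortic valve the groups overlapped, because mutant library 4 at 29.9 was above wild-type library 3 at 28.2. The mean was 21.3 ± 5.80 in mutant aortic and 42.9 ± 11.9 in wild-type aortic valves (SD, n = 4 each). It was 21.2 ± 4.92 in mutant pulmonary and 41.0 ± 13.3 in wild-type pulmonary valves (SD, n = 4 each). These values rested on 114 to 496 reads per library.

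On the log2 scale, with 1 added to each value, the difference of Lmcd1 between mutant and wild type was -0.97 (SE 0.28) in the aortic valve and -0.90 (SE 0.28) in the pulmonary valve, which is a mean of -0.93 (SE 0.20). Its level was lower in the mutant of all 8 litter pairs, with mutant to wild-type ratios between 0.322 and 0.769. Over all tested genes, 0.387% were lower in the mutant of all 8 pairs. Every mutant library lay below every wild-type one for 0.824% of genes in the aortic valve and for 1.05% in the pulmonary valve. These shares describe the table, and nothing is read from them, since Lmcd1 was chosen on this contrast. The choice did not use the contrast between the valves. Lmcd1 differed by -0.03 between pulmonary and aortic valves over both genotypes (SE 0.20, 95% interval -0.45 to 0.39, limma adjusted p = 1.00). Its genotype difference in the pulmonary valve minus that in the aortic valve was 0.07 (SE 0.40, 95% interval -0.77 to 0.91). That value is built from the within-valve genotype differences that the choice used, so it is not free of the choice.

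Mutants also had less Lmcd1 inside each kind of library. In muscle-poor libraries it was 19.5 and 29.9 in 2 mutants and 37.0 to 60.7 in 4 wild types. In muscle-rich libraries with more Tbx20 it was 17.9 to 28.5 in 4 mutants and 32.2 in the single wild type. In Tbx20-poor libraries it was 17.4 and 17.7 in 2 mutants and 28.2 to 38.3 in 3 wild types. No kind of library held a mutant above a wild type, and the share of all genes in such an order was not computed. These values come from the libraries on which Lmcd1 was chosen, so they are a description and no separate evidence for its difference. The mean genotype difference was -1.02 in muscle-poor libraries and -0.71 in muscle-rich ones. It was -0.94 with the mean level of valve mesenchyme markers as a covariate and -0.96 with that of endocardial and endothelial markers. With the level of neuron markers as a covariate it was -0.69, the smallest size under any setting, and the part of neuron RNA in the difference was not tested.

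**Figure D1:**
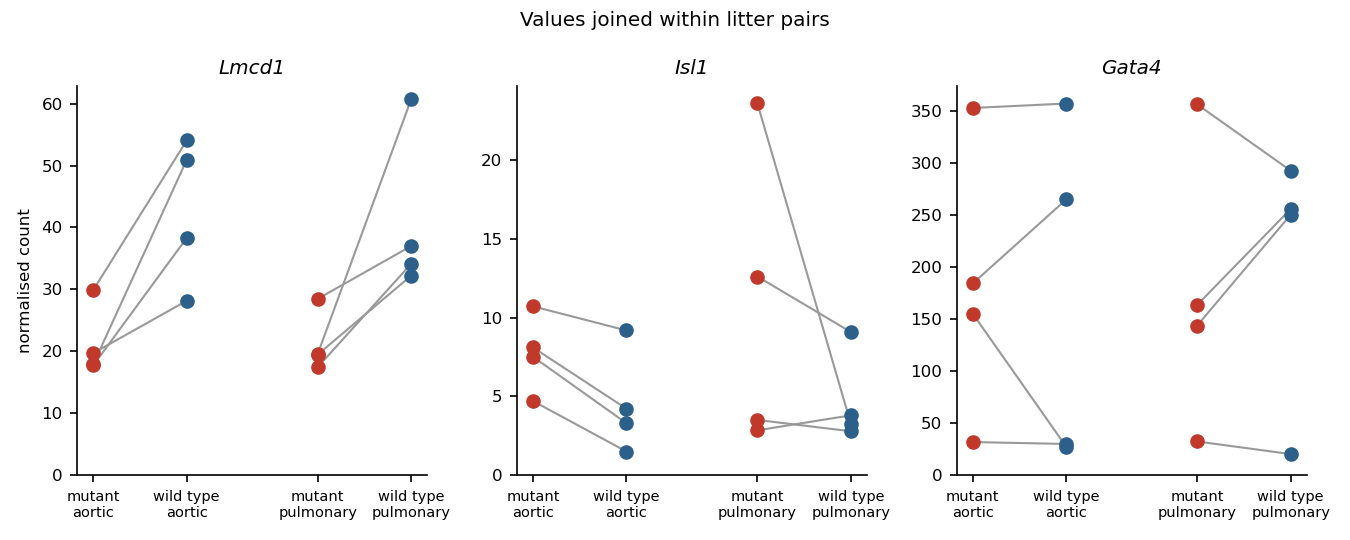
Normalised counts (vertical axes, starting at 0) of Lmcd1, Isl1 and Gata4 by group, with mutants left of wild type within each valve. Each line joins the mutant and wild-type library of a litter pair. All 8 lines of Lmcd1 run upward toward wild type, while 7 of the 8 lines of Isl1 run downward.

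The 250 bases before the start of Lmcd1 and of Hand2 are shown because these genes differ in how they followed the other factors across libraries (RefSeq, GRCm38.p6, both on the plus strand, chr6:112273508-112273757 and chr8:57320733-57320982). Capitals mark the GATA word GATAA, the RBPJ word GTGGGAA of the Notch pathway and the NKX2 word CACTT, each searched on both strands.
Lmcd1: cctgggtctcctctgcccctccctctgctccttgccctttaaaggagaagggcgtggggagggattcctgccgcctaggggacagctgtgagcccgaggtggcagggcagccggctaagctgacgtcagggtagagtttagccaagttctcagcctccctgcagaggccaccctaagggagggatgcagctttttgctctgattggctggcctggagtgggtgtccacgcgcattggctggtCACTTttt
Hand2: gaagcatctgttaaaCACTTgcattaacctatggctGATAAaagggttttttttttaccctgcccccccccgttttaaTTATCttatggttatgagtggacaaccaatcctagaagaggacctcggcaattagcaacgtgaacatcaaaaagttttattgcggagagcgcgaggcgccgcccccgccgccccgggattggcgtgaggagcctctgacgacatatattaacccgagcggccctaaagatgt

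The Lmcd1 window held CACTT once, 8 bases before the start, and no GATAA or GTGGGAA. The Hand2 window held GATAA at 214 and, on the other strand, at 172 bases before the start, and CACTT at 235. An E-box, the word CANNTG that helix-loop-helix dimers bind, was found once in the Lmcd1 window, at 168, and in the Hand2 window at 246 and 235, where the second shares bases with CACTT. Neither window held GTGGGAA. Among 32851 RefSeq promoters of this length, 22.6% held GATAA, 5.42% GTGGGAA, 66.2% CANNTG and 40.7% CACTT. The other windows searched did not divide in the same way. Gata5, whose own closest match in levels was Hand2, had 0 GATAA in its window. Mef2c, whose levels ran against those of the GATA genes, had 2 in 1 of its windows and 0 in the others. The Isl1 window held 1. A match is a string of letters and not a shown binding site.

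Gata4 was the most abundant of the 8 genes per length of exon over all 16 libraries, with a median of 44.5 normalised counts per kilobase. Hand2 followed at 20.0 and Lmcd1 at 16.9 per kilobase. Mef2c, Gata6 and Gata5 had medians of 9.68, 9.48 and 9.04 per kilobase, which do not differ beyond their spread over libraries. Hand1 at 1.95 and Isl1 at 1.13 per kilobase were the least abundant. The ranges of all neighbours in this order overlapped. The order depended on the kind of library. Gata4 led with a median of 82.7 per kilobase in muscle-poor libraries and 41.9 in muscle-rich ones with more Tbx20, but in Tbx20-poor libraries Lmcd1 at 16.3 and Mef2c at 14.6 per kilobase stood above Gata4 at 7.65. Mef2c was second to last in muscle-poor libraries, at 2.62 per kilobase. Spread over libraries was wide for every gene: Gata4 covered 5.16 to 91.5 per kilobase, and Lmcd1, the steadiest, 10.1 to 35.1.

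The 3 GATA genes varied widely within every group and showed no genotype difference that passed the test. Gata4 (ENSMUSG00000021944, chr14:63198922-63271692, minus strand, GRCm38), which valve endocardium and cushion mesenchyme need, had 31.7, 184, 155 and 353 in mutant aortic libraries 1 to 4, against 29.9, 265, 27.1 and 357 in wild-type aortic libraries. It had 32.3, 164, 144 and 356 in mutant pulmonary libraries 1 to 4, against 20.1, 256, 250 and 293 in wild-type pulmonary libraries. Groups overlapped almost fully in both valves, with the lowest library of each group between 20.1 and 32.3 and the highest between 293 and 357. The mean was 181 ± 132 in mutant aortic and 170 ± 167 in wild-type aortic valves, and 174 ± 135 in mutant pulmonary and 205 ± 125 in wild-type pulmonary valves (SD, n = 4 each).

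Gata5 (ENSMUSG00000015627, chr2:180325133-180334699, minus strand, GRCm38), a GATA factor of endocardium, ranged from 4.46 to 86.3 over the 8 mutant libraries (median 28.3) and from 2.22 to 72.8 over the 8 wild-type libraries (median 38.3). Gata6, the partner of LMCD1, ranged from 9.53 to 113 in mutants (median 61.7) and from 11.4 to 113 in wild type (median 65.0). Over both valves the log2 difference was 0.19 for Gata4 (SE 0.72), 0.12 for Gata5 (SE 0.72) and -0.06 for Gata6 (SE 0.59). The 95% intervals ran from -1.33 to 1.71, from -1.40 to 1.64 and from -1.31 to 1.19, so each interval includes changes of more than 1 log2 unit in either direction. Gata6 was lower in the mutant of 6 of 8 litter pairs, Gata4 of 4 and Gata5 of 2.

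Of the 7 genes tested between genotypes, 0 passed the threshold of an adjusted p of 0.05 in the aortic valve, the pulmonary valve or their mean. Over all 13963 genes tested by limma the share called was 0% in each of these contrasts. At an unadjusted p under 0.05 limma picked 196, 437 and 389 genes in the aortic valve, the pulmonary valve and their mean, or 1.4%, 3.13% and 2.79%, and none of the 7 genes was among them. The same contrasts gave 0, 0 and 0 calls with edgeR and 0, 2 and 5 with DESeq2, again none of them among the 7 genes.

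Levels of the GATA genes and Hand2 differed by the kind of library. Gata4 was 256 to 357 in the 6 muscle-poor libraries, 144 to 250.4 in the 5 muscle-rich ones with more Tbx20, and 20.1 to 32.3 in the 5 Tbx20-poor ones. These ranges did not overlap. Gata5 was 50.9 to 86.3, 22.2 to 33.6 and 2.22 to 12.7 in the same 3 sets, again without overlap. Gata6 was 72.8 to 113, 38.5 to 86.3 and 9.53 to 21.8, with overlap only between the first sets. Hand2 was 72.3 to 115, 36.0 to 49.1 and 6.65 to 18.2, without overlap. The share of all genes with such separate ranges was not computed, so the separation cannot be called particular to these genes. The sets were drawn from markers of other cells and from Tbx20 after the data were seen, and each holds libraries of both genotypes and both valves.

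Endocardial and endothelial markers stood in the same order as these 4 genes. Their mean log2 level over 10 of 10 markers was 6.08 to 7.08 in muscle-poor libraries, 5.69 to 6.43 in muscle-rich ones with more Tbx20, and 4.33 to 4.99 in Tbx20-poor ones. Valve mesenchyme markers, 11 of 11 measured, gave 7.66 to 8.12, 7.11 to 7.63 and 5.86 to 7.06. Tbx20, which split the muscle-rich libraries, is itself among these 11 markers, so the order of this list is in part given by the split. The part of tissue mixture in the levels of the factors was not tested. Relative to Tbx20 in the same library, Gata4 was far steadier: the ratio ran from 0.152 to 0.342 over all 16 libraries, with medians of 0.306 in mutant aortic, 0.229 in wild-type aortic, 0.286 in mutant pulmonary and 0.191 in wild-type pulmonary valves. The same ratio ran more widely for the other 3 genes, from 0.0187 to 0.116 for Gata5, 0.0516 to 0.181 for Gata6 and 0.0503 to 0.186 for Hand2. The ratio of Lmcd1 to Tbx20 ran from 0.0169 to 0.380, so Lmcd1 did not keep step with Tbx20.

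**Figure D2:**
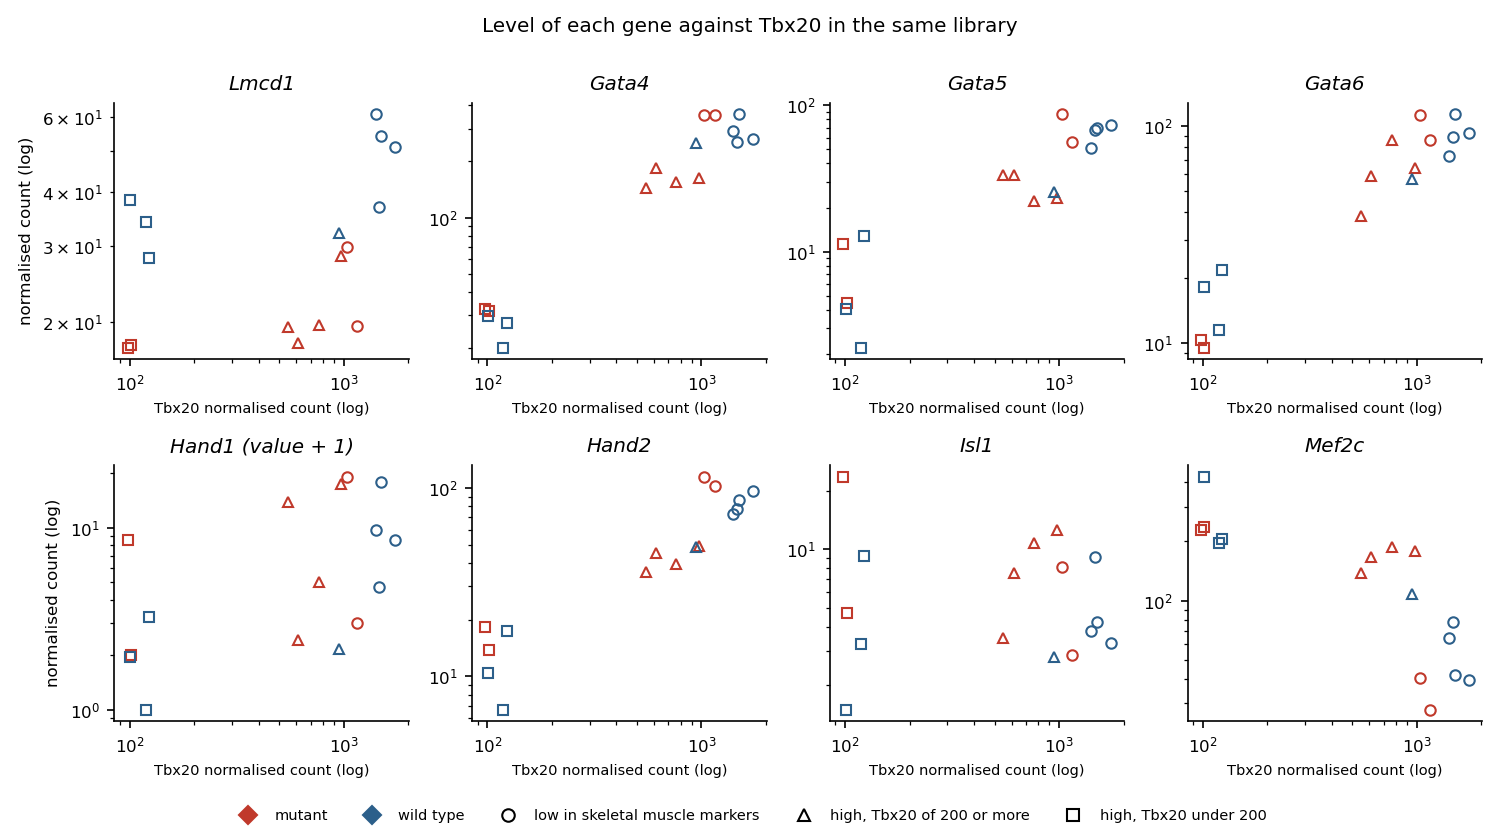
Normalised count of each gene (vertical, log scale, Hand1 with 1 added) against the normalised count of Tbx20 in the same library (horizontal, log scale), 1 point per library, coloured by genotype and shaped by kind of library (circles for muscle-poor, triangles for muscle-rich with Tbx20 of 200 or more, squares for Tbx20-poor). Gata4, Gata5, Gata6 and Hand2 are higher and Mef2c lower at high Tbx20, and the mutant points of Lmcd1 lie below the wild-type points of the same shape.

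Hand2 (ENSMUSG00000038193, chr8:57320983-57324633, plus strand, GRCm38), needed for the right ventricle and the cushions, had 13.9, 45.1, 39.4 and 115 in mutant aortic libraries 1 to 4, against 10.5, 96.3, 17.3 and 86.3 in wild-type aortic libraries. It had 18.2, 49.1, 36.0 and 103 in mutant pulmonary libraries 1 to 4, against 6.65, 77.3, 48.9 and 72.3 in wild-type pulmonary libraries. The groups overlapped in both valves, and in each of them the lowest library was Tbx20-poor. Its log2 difference over both valves was 0.20 (SE 0.59, 95% interval -1.04 to 1.44). The exons of Hand2 share 461 bases with the antisense gene Hand2os1, those of Gata5 share 258 with Gata5os and those of Gata6 share 93 with 1010001N08Rik. The labels do not say whether reads were counted by strand, so reads of such partners cannot be told apart. Gata5os had at most 4.74 and 1010001N08Rik at most 32.5 in any library, and Hand2os1 was not analysed here.

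Hand1 (ENSMUSG00000037335, chr11:57828705-57832818, minus strand, GRCm38), a close relative of HAND2 known from the left ventricle and outflow tract, was scarce. In mutant pulmonary libraries 1 to 4 it had 7.60, 16.4, 12.9 and 1.98, against 0, 3.74, 1.16 and 8.69 in wild-type pulmonary libraries. The 0 allows a level of up to 0.512, the worth of 3 reads in that library. Mutant aortic libraries 1 to 4 had 0.990, 1.41, 4.04 and 18.1, against 0.951, 7.52, 2.22 and 16.8 in wild-type aortic libraries. Groups overlapped in both valves. In the pulmonary valve libraries 1 to 3 were higher in mutants and library 4 was lower.

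The log2 difference of Hand1 was 1.49 in the pulmonary valve (SE 0.87, limma unadjusted p = 0.104, adjusted p = 1.00) and -0.26 in the aortic valve (SE 0.87). Neither passed the test, and the difference between the valves was 1.75 (SE 1.23, unadjusted p = 0.171). It turned with the kind of library: the pulmonary difference was 3.12 among muscle-rich libraries and -1.19 among muscle-poor ones, where only 1 mutant and 2 wild-type pulmonary libraries remained. The muscle-rich wild-type pulmonary libraries were 1 and 3, with 0 and 5 reads of Hand1, so the size of the 3.12 rests on values near the floor.

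Isl1 (ENSMUSG00000042258, chr13:116298281-116309689, minus strand, GRCm38) had higher group means in mutants of both valves, 7.76 ± 2.47 in mutant aortic and 4.55 ± 3.29 in wild-type aortic valves, and 10.6 ± 9.73 in mutant pulmonary and 4.72 ± 2.93 in wild-type pulmonary valves (SD, n = 4 each). Mutant aortic libraries 1 to 4 had 4.70, 7.52, 10.7 and 8.11, against 1.49, 3.29, 9.19 and 4.21 in wild-type aortic libraries. Mutant pulmonary libraries 1 to 4 had 23.6, 12.6, 3.499 and 2.84, against 3.24, 9.08, 2.78 and 3.79 in wild-type pulmonary libraries. Its level was higher in the mutant of 7 of 8 litter pairs, where 4.13% of all tested genes were higher in at least 7. The groups overlapped in both valves, and mutant pulmonary library 1 stood highest of all 16. The difference over both valves was 0.76 (SE 0.41, 95% interval -0.11 to 1.63, limma unadjusted p = 0.0816, adjusted p = 1.00) and did not pass the test.

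Neuron markers were also higher on average in mutants, although they did not follow Isl1 in every library. The mean log2 level of the 5 of 8 neuron markers measured was 3.91 ± 0.894 in mutant aortic and 2.83 ± 1.24 in wild-type aortic valves, and 4.07 ± 1.202 in mutant pulmonary and 2.81 ± 0.450 in wild-type pulmonary valves (SD, n = 4 each). Their summed level ran from 78.0 to 177 in mutant aortic and from 15.5 to 169 in wild-type aortic libraries, and from 75.0 to 491 in mutant pulmonary and from 54.0 to 90.7 in wild-type pulmonary libraries, and no measured marker was at 0 throughout a group. Mutant pulmonary library 1 had the highest neuron mean, 5.87, and 57.2 of Elavl4, an RNA-binding protein of neurons. Wild-type pulmonary library 2 had the highest Isl1 of its group, but the lowest neuron mean of its group, 2.53, and 0.267 of Elavl4. The neuron markers were divided there, because Phox2a from the same list was 3.47, the highest of its group, where the other libraries had 0 to 1.71. With the neuron mean as a covariate the Isl1 difference was 0.09 over both valves. In muscle-rich libraries alone it was 1.12 and in muscle-poor ones 0.04. That 0.04 averages valves that went opposite ways, with 1 mutant library in each. There the pulmonary difference was -0.86, and the pulmonary minus the aortic difference was -1.80. Whether neuron RNA plays a part in the Isl1 values was not tested further.

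Mef2c (ENSMUSG00000005583, chr13:83504034-83667080, plus strand, GRCm38), a MADS-box factor of heart muscle, skeletal muscle and endothelium, ran against the GATA genes. Mutant aortic libraries 1 to 4 had 236, 166, 187 and 40.5, against 428, 39.2, 207 and 41.9 in wild-type aortic libraries. Mutant pulmonary libraries 1 to 4 had 229.9, 178, 139 and 27.8, against 197, 77.9, 108 and 64.4 in wild-type pulmonary libraries. It was 27.8 to 77.9 in muscle-poor libraries, 108 to 187 in muscle-rich ones with more Tbx20 and 197 to 428 in Tbx20-poor ones, without overlap. The share of all genes in that order was not computed either. All 14 skeletal muscle markers were measured, and their mean log2 level in the same order was 0.386 to 1.81, 4.49 to 5.18 and 4.25 to 6.02. Schwann cell markers gave 1.02 to 1.82, 1.74 to 2.26 and 2.11 to 2.61, and cardiomyocyte markers 2.39 to 5.10, 3.97 to 7.38 and 4.22 to 7.28. Endocardial and valve mesenchyme markers went the other way, as given above. The part of any of these cells in the Mef2c level was not tested. The genotype difference of Mef2c over both valves was 0.20 (SE 0.55, 95% interval -0.95 to 1.35).

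**Figure D3:**
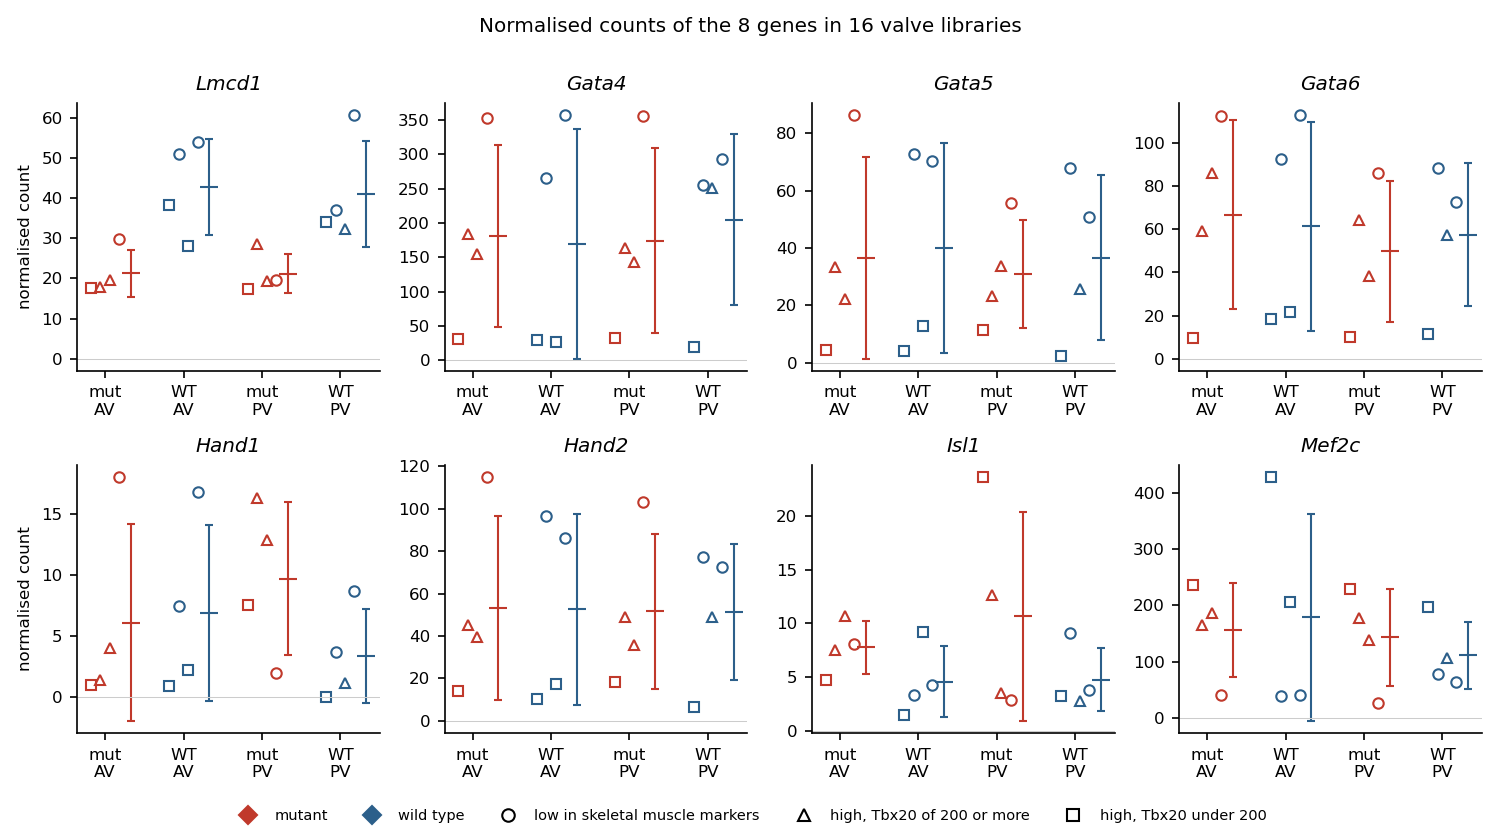
Normalised count (vertical axes) of the 8 genes in the 16 libraries, with mutants left of wild type within each valve (AV aortic, PV pulmonary), points for libraries and bars for the group mean and SD. Gata4, for instance, runs from 20.1 to 357 with every group spread over most of that range, whereas Lmcd1 keeps mutants between 17.4 and 29.9.

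**Figure D4:**
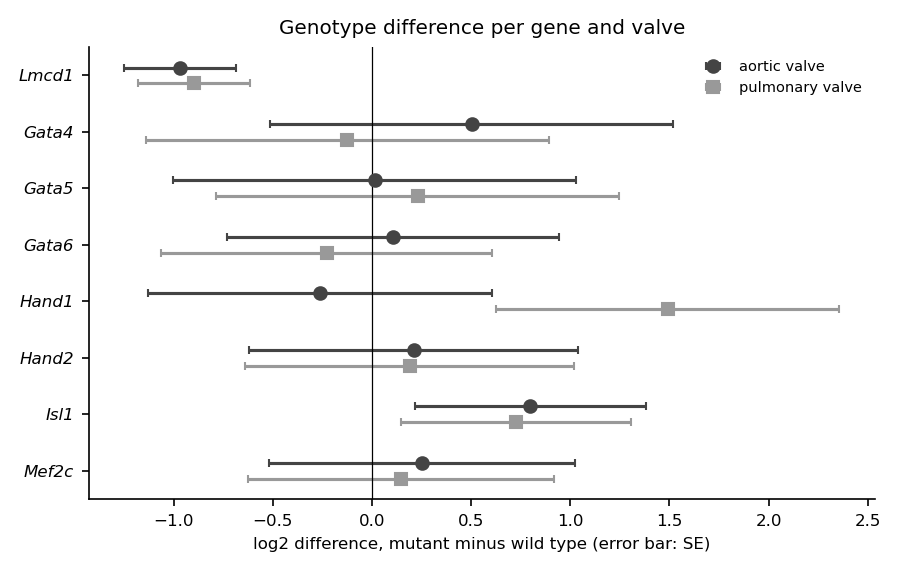
Difference of log2(normalised count + 1), mutant minus wild type (horizontal), for each gene (vertical) in the aortic (circles) and pulmonary valve (squares), with SE bars from a model over all genes. Lmcd1 has the shortest bars and lies at -0.97 and -0.90, and the bars of the other genes are 2 or more times as long.

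Between the valves, 0 of the 8 genes passed the test in wild type, in mutants or over both genotypes, and 0% of all tested genes did. Limma picked 153, 67 and 47 genes at an unadjusted p under 0.05, or 1.1%, 0.48% and 0.337%. With edgeR 158, 72 and 69 genes were below that level, with DESeq2 208, 102 and 74, and none passed after adjustment by either. Over both genotypes the pulmonary minus aortic difference of the factors lay between -0.17 for Mef2c and 0.25 for Gata4. In the test of the genotype difference in the pulmonary valve minus that in the aortic valve, 0 of the 8 genes and 0% of all genes passed, with 264 genes or 1.89% at an unadjusted p under 0.05.

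No gene was called in any of the lists of genes that work with these factors. In the GATA and FOG family, 0 of 7 tested genes passed over both valves. These 7, Gata4, Gata5 and Gata6 included, had a median log2 difference of 0.12, beside 0.01 over all genes. The 4 genes that are not members had a median of -0.19. Zfpm1, the FOG cofactor of GATA proteins, had -0.52 (SE 0.45) and Gata3 -0.60 (SE 0.37). Of 4 NK2 and LIM-homeodomain genes and their LIM-binding partners, Isl1 included, 0 passed. Their median was 0.24, and that of the 3 without Isl1 was -0.11. Ldb2, which bridges LIM-homeodomain proteins, had 0.58 (SE 0.45). Among 7 basic helix-loop-helix genes, which include Hand1, Hand2 and the E proteins that pair with HAND factors, 0 passed. Their median was 0.14, and that of the 5 without Hand1 and Hand2 was -0.08. Tcf4 had 0.24 (SE 0.21).

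In the list of MEF2 and SRF factors with their regulators, 0 of 11 genes passed, Mef2c included. Hdac9, a class IIa deacetylase that binds and represses MEF2 proteins, averaged 13.6 ± 2.49 in mutant aortic and 6.86 ± 3.62 in wild-type aortic valves, and 12.5 ± 2.07 in mutant pulmonary and 7.57 ± 6.12 in wild-type pulmonary valves (SD, n = 4 each). Its log2 difference of 0.98 (SE 0.34, limma unadjusted p = 0.0100, adjusted p = 1.00) did not pass after adjustment. Its relatives Hdac5 and Hdac4 had -0.26 (SE 0.28) and -0.19 (SE 0.27).

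Of 15 genes that these factors are known to activate in heart muscle, 0 passed, and 9 lay above and 6 below 0 over both valves. In the aortic valve 2 lay above and 13 below 0, with a median of -0.28, and in the pulmonary valve 10 lay above and 5 below, with a median of 0.46. Smyd1, a muscle methyltransferase, had 1.22 (SE 1.09) and Gja5, a gap junction protein, -0.79 (SE 0.77) over both valves. Of these 15 genes, 9 are themselves among the cardiomyocyte markers. Those markers, 12 of 13 measured and none at 0 throughout a group, moved the same way: their mean log2 level was 4.57 ± 1.41 in mutant aortic and 5.07 ± 1.71 in wild-type aortic valves, and 4.80 ± 1.81 in mutant pulmonary and 4.24 ± 1.596 in wild-type pulmonary valves (SD, n = 4 each). Their part in the target genes was not tested.

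Among 15 LIM-only and LIM-domain relatives of Lmcd1, 0 passed and the median was 0.06. Lmo2, a LIM-only protein of endothelium and blood, had the smallest p, with 41.4 ± 12.8 in mutant aortic and 56.2 ± 38.8 in wild-type aortic valves, and 41.6 ± 18.1 in mutant pulmonary and 84.8 ± 39.5 in wild-type pulmonary valves (SD, n = 4 each). Its log2 difference was -0.60 (SE 0.32, limma unadjusted p = 0.0819). LMCD1 is also known to act on calcineurin signalling in mouse heart muscle. Of 13 calcineurin and NFAT genes 0 passed, with a median of 0.13, and Ppp3cc, a catalytic subunit of calcineurin, had -0.46 (SE 0.32). Of 7 second heart field genes, Isl1 and Mef2c included, 0 passed. Their median was 0.20, and that of the 5 without Isl1 and Mef2c was 0.12. Wnt11 had -0.32 (SE 0.42). These lists were read by their counts and medians alone.

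Likeness of pattern was measured as the root mean square difference of log2 values over the 16 libraries after centring each gene on its mean, among 11308 genes with a mean of at least 5. Gata5 had Hand2 as the gene most like it, at 0.39. The genes most like Gata4 were Pdlim3 at 0.25, Mical2 at 0.26 and Ptprb at 0.28, where Tbx20 ranked 13th at 0.38. Gata6 was closest to the extracellular matrix genes Fbn1 at 0.30 and Hspg2 at 0.30, and to the matrix protease Mmp14 at 0.32. Hand2 was closest to Ptprf at 0.25, Hey2, a Notch target, at 0.27 and Calcrl at 0.29. Mef2c was closest to Capn6 at 0.31, Peg10 at 0.35 and Nrk at 0.38.

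The other 3 genes had no close match for their size of variation. Lmcd1 was closest to Nynrin at 0.37, Erp29 at 0.38 and Btg2 at 0.38, while its own values deviated from their mean by 0.57. Hand1 was closest to Slc8a1 at 0.75 with its own deviation of 1.30. Isl1 was closest to Inpp5f at 0.51 with a deviation of 0.84. All of these values share library depth and tissue mixture.

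**Figure D5:**
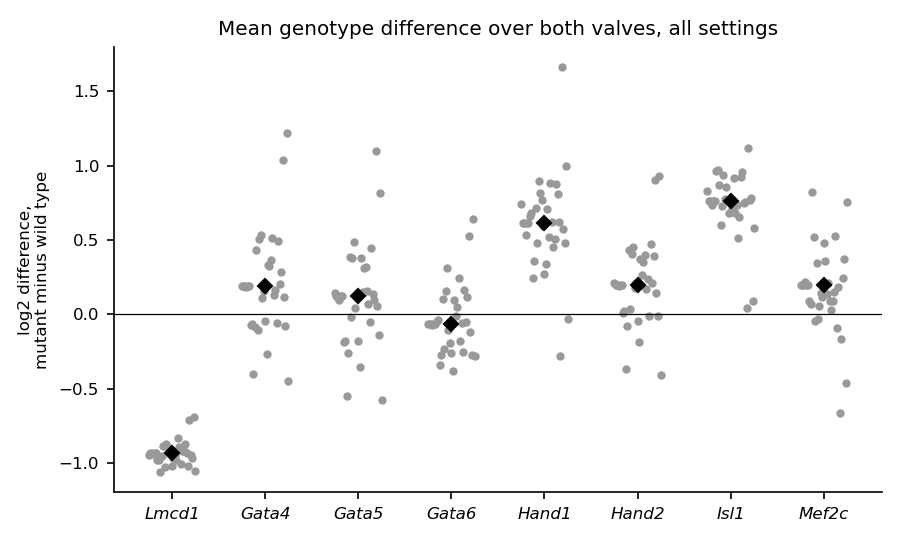
Mean difference over both valves of log2 values, mutant minus wild type (vertical), for each gene (horizontal) in the fit as reported and under each other way of processing or choosing libraries. All values of Lmcd1 lie between -1.06 and -0.69, whereas those of Hand1 reach from -0.28 to 1.66 and those of Isl1 from 0.04 to 1.12.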

How the data were processed

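Libraries came from laser-microdissected valves, with RNA amplified before library preparation, per the labels' protocols. The submitters' processing notes name CASAVA 1.8.2, cutadapt 1.6, FastQC, RSEM 1.2.3 and build GRCm38. The authors deposited a normalised signal for 13964 genes, and neither its scaling nor any filter on low values is stated in the labels. From the values, 100% were whole multiples of 1 read (tolerance 0.05 read), and the scaling equalled that of CPM with trimmed-mean (TMM) factors to within 3.68e-07%. A read was worth 0.117 to 0.232, and counting intervals cover counting error only. Symbols came from a name table, and 184 IDs had none.

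Log2(value + 1) was fitted with limma 3.58.1 (R 4.3.3, eBayes with trend) for the 13963 genes that reached a value of 1 in 4 or more libraries, with 1 mean per group, 12 residual degrees of freedom, two-sided tests and Benjamini-Hochberg adjustment over all of them at 0.05. All 8 measured genes passed the filter. The numbered libraries share litters by their labels, and the correlation of their deviations from group means was 0.48, 0.01, 0.20 and 0.64 for aortic pairs 1 to 4 and 0.49, -0.03, 0.07 and 0.45 for pulmonary pairs. Alternatives were edgeR 4.0.16 and DESeq2 1.42.0 on the recovered reads, other filters, pseudocount 0.5, quantile normalisation, library weights, the litter as a block, marker levels as covariates, subsets of libraries and leaving out each library. The members, gene lists and tests were chosen with earlier results of these data known, and a split at a Tbx20 of 200 and covariates for valve mesenchyme, endothelial and neuron markers were added after seeing the data. Named genes are the members, the 3 genes most like each and up to 3 genes per list with the smallest p, of which the text gives a part.

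On simulated data with 100 genes changed by 2-fold and 100 by 4-fold, limma recovered 37 and 85 of them in the mean of both valves, 11 and 54 in the aortic valve and 8 and 64 in the pulmonary valve, with 12, 5 and 5 false calls among 13963 genes. The simulated counts were independent between libraries, without shared litters or kinds of library. The changed genes were drawn at random from those with a mean of at least 5, so these shares are not those of the members. Exon positions came from an annotation of GRCm38, and promoter windows from RefSeq. The search covered 6 of the 9 genes in 8 windows, and Gata6 was left out of it. Python 3.11.15 was used for sequences and figures.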

Additional observations from a re-analysis of the deposited data

Results flagged for a closer look

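Gata4 in wild-type pulmonary library 1 was 20.1, while the other 3 wild-type pulmonary libraries lay between 250.4 and 293. It was flagged because the gap to its nearest neighbour made up 0.941 of the range of the group, above Dixon's 95% critical value for 4 samples. Of 32 groups of 4 libraries examined over the 8 genes this was the only 1 flagged, and chance flags about 1 in 20 groups. The same library had a Tbx20 value of 119.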

How the results depend on the processing

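The contrasts that involve genotype were run under 33 alternatives each and those between valves alone under 32, and 0 members were called in any of them (Lmcd1 left out between genotypes), as in the fit reported, and leaving out each library in turn gave 0 throughout. The replicate block of shared litters also gave 0 calls among the members, and so changed no call, although over all genes it called 2 in the mean of both valves, where the fit without it called 0. The genotype difference of Lmcd1 kept its sign under every alternative run, which again describes the libraries on which Lmcd1 was chosen. Its mean over both valves lay between -1.06 with library weights and -0.69 with neuron markers as a covariate. Without single libraries it lay between -1.02 and -0.83. Of 1824 values of the members under alternatives, 363 changed sign, and none of these was called. The pulmonary genotype difference of Hand1, 1.49 as reported, was -1.19 when only muscle-poor libraries were kept, and that of Mef2c, 0.15 as reported, was -1.32 there. In both cases the cause was not tested. In data simulated with independent libraries, limma recovered 2-fold changes for 37 of 100 genes in the mean of both valves. It recovered 11 of 100 in the aortic valve and 8 of 100 in the pulmonary valve. Those genes were drawn at random, and recovery of the members themselves was not simulated.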
